A study of Mus musculus with 10 samples.

Results

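The respiratory chain passes electrons from NADH and succinate to oxygen through complexes I to IV of the inner mitochondrial membrane, and complex V, the ATP synthase, uses the resulting proton gradient to make ATP. Its subunits come from both genomes of the cell: the mitochondrial DNA encodes the hydrophobic core of complexes I, III, IV and V, whereas the nucleus encodes all other subunits and all of complex II. Leukemic cells of the myeloid lineage, including leukemia stem cells, are known to depend on this pathway. The genes described here were all protein-coding genes whose symbol begins like that of a subunit (mt-Nd, mt-Co, mt-Cytb and mt-Atp in the mitochondrial genome, and Nduf with a, b, c, s or v and a digit, Sdha to Sdhd, Uqcr, Cox4 to Cox8 and Atp5 in the nucleus) and that had at least 10 counts in total over 10 libraries. Of 97 genes that matched by symbol, 93 passed, out of 20269 genes at that minimum and 52550 genes in the count table. Complex I contributed 7 mitochondrial and 36 nuclear genes, complex II 4 nuclear genes, complex III 1 and 8, complex IV 3 and 15, and complex V 2 and 17, so that 13 genes were mitochondrial and 80 nuclear.

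The cells were murine hematopoietic stem and progenitor cells (HSPCs), enriched from bone marrow of C57BL/6 mice aged 8 to 20 weeks and transformed with a retrovirus that expresses the MLL-AF9 fusion oncogene. Both constructs carry a doxycycline (DOX)-inducible lentiviral transgene. For MLL-AF9-i139 the cells had first received the TetR-KRAB repressor, which keeps the transgene silent until DOX is added; the sources used here do not state this for MLL-AF9-ieGFP. In MLL-AF9-i139 the transgene is miR-139, a tumor-suppressing microRNA, and 3 clones grown from picked colonies were each sequenced once without DOX and once with DOX at 5 µg/mL, for 48 h in clones 1 and 2 and for 72 h in clone 3; no time is given for their untreated cultures. In MLL-AF9-ieGFP the transgene is eGFP, and 1 clone was sequenced at 48 h and at 72 h, each time untreated and with the same dose of DOX, so that its libraries are different times of a single clone. DOX is a tetracycline, and tetracyclines are known to bind mitochondrial ribosomes, which makes MLL-AF9-ieGFP the control for the compound itself. The question asked of these genes was whether mitochondrial and nuclear subunits of each complex changed together with DOX, with the construct and between clones.

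Ribosomal RNA was depleted from total RNA before sequencing, and the deposited raw counts summed to between 35133308 and 47089725 per library. Genes of the mitochondrial chromosome took 0.823% to 1.40% of the counts, and the nuclear members 0.644% to 0.785%. Kit, a marker of the labelled cell type, lay between 134.9 and 166.5 CPM. CPM is the depth-scaled count, here relative to the library total and for the members also to TMM factors. The summed level of 7 myeloid progenitor markers was 1239 to 1454 CPM in untreated and 2227 to 2574 CPM in DOX-treated MLL-AF9-i139. In MLL-AF9-ieGFP it was 1285 to 1407 CPM untreated and 1488 to 1709 CPM with DOX. Of these markers, Cd34 and Itgam were at or near 0 in all libraries. Itgam encodes CD11b, for which the paper reports MLL-AF9 cells positive by flow cytometry, and this difference was not tested. Lists of T cell, B cell, erythroid, megakaryocyte and stromal markers summed to at most 2.95 CPM in any library, and 4 neutrophil markers to between 9.27 and 16.5 CPM. The 4 macrophage markers summed to at most 2.06 CPM in untreated libraries and to between 0.822 and 9.71 CPM in DOX-treated MLL-AF9-i139, with C1qa at 0 throughout. The myeloid progenitor sum lay higher with DOX in MLL-AF9-i139 mainly through Mpo, which went from 429.2, 606.7 and 576.4 to 1356, 1235 and 1688 CPM in clones 1, 2 and 3. Fcgr3 and Ptprc were higher in clones 1 and 2, where Ly6c2 was lower, at 262.5 and 285.9 against 355.1 and 425.5 CPM. These values moved with DOX, with the macrophage sum higher in part of the clones, and their part in the values of the respiratory chain genes was not tested. In bulk RNA, fewer cells of a kind and less RNA per cell cannot be told apart.

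The 4 genes without counts were Cox4i1, the main isoform of a core-associated subunit of complex IV, Cox6a2, Cox8c and Ndufa13. They were at 0 in each of the 10 libraries. The annotation places 100% of the body of Cox4i1, Cox6a2 and Ndufa13 inside other genes, and 0% of that of Cox8c. The settings that decide how reads of overlapping genes are counted are not given in the sources used here, so no level is stated for these genes.

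A stretch of mouse chromosome 1 (GRCm38, from 24611535 to 24616197) holds nuclear copies of part of the mitochondrial genome, and several mitochondrial members share their sequence with it. The copy of mt-Co3 (Gm28437) was identical over 783 aligned bases, that of mt-Atp6 (Gm10925) over 678, that of mt-Co2 (Gm28661) over 681 and that of mt-Nd4l (Gm10222) over 294. The copy of mt-Nd3 (Gm28438) differed at 1 of 345 bases. The first 60 bases of both are given because they carry that difference, which stands in capitals.
mt-Nd3: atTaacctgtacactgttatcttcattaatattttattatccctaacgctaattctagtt
Gm28438: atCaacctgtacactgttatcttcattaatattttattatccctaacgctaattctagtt
These genes had few counts. In the lowest and the highest library, mt-Co2 had 682 and 1105, mt-Co3 421 and 861, mt-Atp6 257 and 580, mt-Nd3 188 and 461, and mt-Nd4l 72 and 140. The copies Gm28661, Gm28437 and Gm10925 had 341 to 566, 252 to 454 and 236 to 547. Members that lie outside the copied stretch, or in part of it, had far more: mt-Co1 had 158200 to 216498 counts, and mt-Nd1, mt-Cytb, mt-Nd5 and mt-Nd4 each had at least 16412. The counts of the copied genes are therefore uncertain, since reads that match both places can be lost or split. mt-Atp8 had 3 to 35 counts and shares 21.1% of its body with mt-Atp6. On the mitochondrial genome it follows mt-Co2 and runs into mt-Atp6, which both have a copy. mt-Atp8 itself was not matched to an annotated copy, so whether it is copied too was not tested.

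Per kilobase of exons, the mean level in untreated MLL-AF9-i139 was highest for mt-Co1, the catalytic subunit of complex IV, at 3176 CPM per kb. It was followed by mt-Nd1 at 1595 and mt-Cytb, the cytochrome b of complex III, at 1309. The median nuclear member had 40.8 CPM per kb of exons. Nuclear levels ran up to 259.6 for Atp5b, the catalytic β subunit of ATP synthase, with 234.8 for Atp5a1, the α subunit, and 214.5 for Cox8a, a small subunit of complex IV. Nuclear members have a median ratio of body to exon length of 4.21, and per kb of the whole body, the scale that applies if introns were counted, their median level was 7.67 CPM. On both scales the abundant mitochondrial members lay above the median nuclear member.

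The isoforms that mark other tissues were low in all libraries. Cox7a1 and Cox8b, known from heart and skeletal muscle, had at most 2.90 and 0.789 CPM, against at least 76.7 CPM for Cox7a2 and 97.8 CPM for Cox8a. Cox6b2, a testis isoform, had at most 0.559 CPM and Cox6b1 at least 123 CPM. The hypoxia-linked Cox4i2 and Ndufa4l2 lay at 0.365 to 1.46 CPM and 0.376 to 1.88 CPM, whereas Ndufa4, now known as a subunit of complex IV, lay at 62.1 to 89.6 CPM. By their symbols, Ndufa4 and Ndufa4l2 were counted with complex I in all values per complex given here. Cox7b2 had 10 counts in all, too few in the MLL-AF9-i139 libraries to be tested there.

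Nuclear respiratory chain genes lay lower with DOX in MLL-AF9-i139 by a small amount, whereas mt-Cytb lay higher. No member passed the main edgeR test, which used the MLL-AF9-i139 libraries without the clone in the model. The median log2 fold change was -0.10 for 79 nuclear members tested and 0.15 for the 13 mitochondrial ones, against 0.01 for all 19223 genes tested. Of the nuclear members, 59 had a negative and 20 a positive log2 fold change. By the quasi-likelihood test of edgeR, adjusted by Benjamini and Hochberg, 0 of 92 members passed an adjusted p of 0.05, where 0.0624% of all genes did. An unadjusted p under 0.05 was reached by 14 members, against 20.6% of all genes, and DESeq2 called 4 (Uqcrc1, Atp5g3, Cox7a2l and mt-Cytb), against 12.1%. Neither share of the members exceeded that of all genes.

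The libraries with and without DOX come from the same clones. With the clone as a block, 8 members passed (edgeR), 3 higher and 5 lower with DOX, where 12.4% of all genes passed, which is no lower than the share of the members. Uqcrc1, Atp5g3, Atp5g1, Sdhd and Ndufa5 fell, and mt-Cytb, Ndufv3 and Cox7a2l rose. Ndufa5 was named after its values were seen. In the edgeR fit of all 10 libraries without the block 3 members passed, where 6.09% of all genes did.

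In 46 of the 79 nuclear members the DOX library lay below the untreated library in each of the 3 clones, against 26.5% of all genes, and in 12 it lay above in each, against 27.2%. Lower in each clone were 4 of 4 genes in complex II, 6 of 8 in complex III, 12 of 17 in complex V, 18 of 36 in complex I and 6 of 14 in complex IV. The median log2 fold changes of these complexes, in the same order, were -0.19, -0.13, -0.13, -0.08 and -0.05. Groups that did not overlap were found for 25 members, 7 above and 18 below, close to the 24.9% of all genes.

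**Figure D1:**
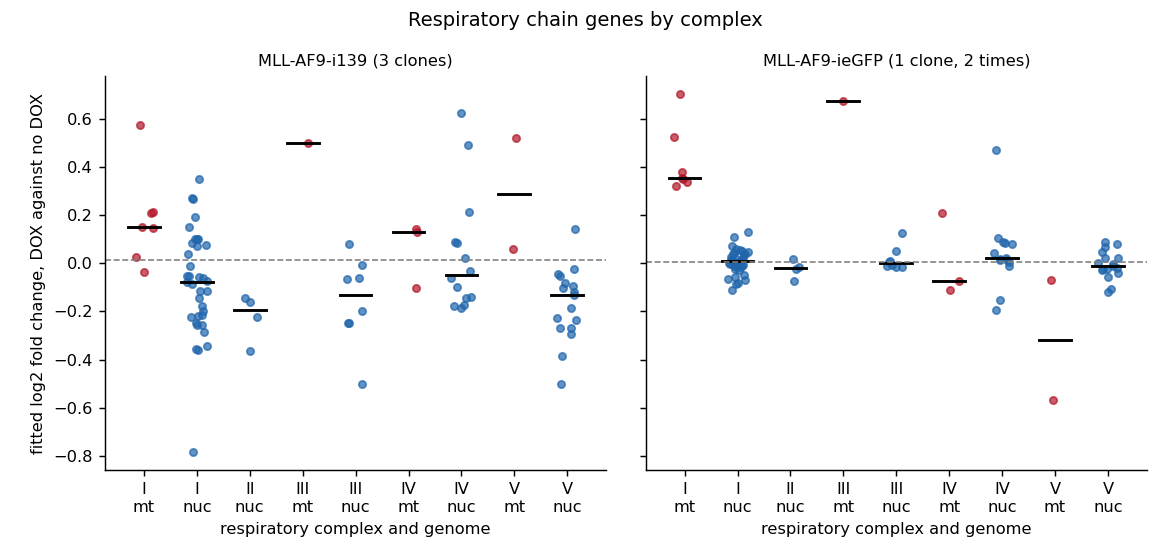
Fitted log2 fold change of each member (points) with DOX against no DOX in MLL-AF9-i139 and in MLL-AF9-ieGFP, by complex and by genome (mt, mitochondrial; nuc, nuclear); black bars are medians and the dashed line is the median of all genes tested. In MLL-AF9-i139 the nuclear medians of complexes I to V lie between -0.19 and -0.05, whereas in MLL-AF9-ieGFP they lie between -0.02 and 0.02.

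Uqcrc1, a core protein of complex III (chromosome 9, from 108936633 to 108949623 of GRCm38, plus strand), and Atp5g3 of complex V had the most negative values among members with at least 2 CPM. Uqcrc1 had 242, 289 and 267 CPM without DOX in clones 1, 2 and 3 and 159, 191 and 208 CPM with DOX, and the 2 groups did not overlap. In MLL-AF9-ieGFP, Uqcrc1 had 278 and 279.6 CPM untreated at 48 h and 72 h, and 269 and 290.2 CPM after DOX, which is within the range of the untreated clones apart from the last value. The log2 fold change in MLL-AF9-i139 was -0.50 (SE 0.12, adjusted p = 0.114, edgeR, and 0.0246 with the clone as a block).

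ATP synthase subunit c, which forms the rotating ring of complex V, is made from several nuclear genes that encode the same mature protein. Atp5g3 had 77.7, 90.7 and 83.1 CPM without DOX and 50.6, 56.8 and 69.0 CPM with DOX in clones 1, 2 and 3. Atp5g1 had 103, 130.1 and 119.7 CPM without and 72.9, 90.7 and 105 CPM with DOX. Each clone was lower with DOX for both genes, but for Atp5g1 clone 3 with DOX lay above clone 1 without. Their log2 fold changes were -0.50 (SE 0.13) and -0.38 (SE 0.15), with adjusted p = 0.120 and 0.203, or 0.0296 and 0.0407 with the clone as a block (edgeR). The third gene, Atp5g2, had 63.7, 72.5 and 72.6 CPM without and 56.2, 61.9 and 76.0 CPM with DOX, and its clones did not share a direction (log2 fold change -0.09, adjusted p = 0.726, edgeR). In MLL-AF9-ieGFP, Atp5g3 went from 90.6 and 91.2 to 83.2 and 84.0 CPM, and Atp5g1 from 124 and 129 to 125 and 144 CPM.

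The F1 subunits that carry out catalysis lay lower as well without passing the test. Atp5b had 1001, 1141 and 1159 CPM without and 862, 1000.3 and 1015 CPM with DOX (log2 fold change -0.19, SE 0.11, adjusted p = 0.380, edgeR). Atp5a1 had 679.6, 780.4 and 748 CPM without and 560.1, 619 and 689.5 CPM with DOX (-0.23, SE 0.11, adjusted p = 0.284, edgeR). Atp5e, a small subunit of the central stalk, had the highest value of the complex among genes with a shared direction, at 0.14 (SE 0.09).

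All genes of complex II, the succinate dehydrogenase that also works in the citric acid cycle, lay lower with DOX in each clone. Sdhd, a membrane anchor, had 114, 135 and 135 CPM without and 88.6, 95.4 and 112 CPM with DOX, and the groups did not overlap. Its log2 fold change was -0.36 (SE 0.12, adjusted p = 0.160, edgeR, and 0.0368 with the clone as a block). Sdhc, the other anchor, had a log2 fold change of -0.16 (SE 0.11), the iron-sulfur subunit Sdhb of -0.22 (SE 0.13) and the flavoprotein Sdha of -0.15 (SE 0.09), and none of them passed in either fit.

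Complex I had members on both sides. Ndufv3, a small subunit of the NADH-binding module, had 86.7, 98.8 and 86.5 CPM without and 113, 128 and 102 CPM with DOX, with no overlap (log2 fold change 0.35, SE 0.11, adjusted p = 0.156, edgeR, and 0.0398 with the clone as a block). Ndufa5, an accessory subunit, had 37.2, 43.0 and 39.4 CPM without and 26.3, 32.6 and 33.8 CPM with DOX, also with no overlap (-0.36, SE 0.13, adjusted p = 0.185, edgeR, and 0.0474 with the clone as a block). Ndufb6 had a similar value of -0.36 with a wider error (SE 0.17, adjusted p = 0.271, edgeR). Among core subunits that bind the flavin or iron-sulfur clusters, Ndufv1 had a log2 fold change of -0.12 (SE 0.12) and Ndufs1 of -0.15 (SE 0.11), whereas Ndufv2 had -0.29 (SE 0.11), with groups that did not overlap, and Ndufs7 -0.25 (SE 0.13). Ndufv2 and Ndufs7 were named after their values were seen, and none of these 4 passed in either fit. Ndufs8, another core subunit of this group, also named after its values were seen, did not lie lower. Its log2 fold change was 0.04, with 0.04, -0.06 and 0.10 in clones 1, 2 and 3.

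In complex IV, Cox7a2l had the largest positive value among nuclear members with at least 2 CPM. This relative of Cox7a2 is known for its part in joining complexes III and IV into supercomplexes. It had 78.9, 85.99 and 80.6 CPM without and 125, 127 and 89.6 CPM with DOX, where clones 1 and 2 rose well above the untreated range and clone 3 lay just above it. The log2 fold change was 0.49 (SE 0.14, adjusted p = 0.133, edgeR, and 0.0436 with the clone as a block), made of 0.66, 0.56 and 0.15 in clones 1, 2 and 3. The core-facing subunits Cox5a and Cox5b had log2 fold changes of 0.08 (SE 0.10) and -0.06 (SE 0.11), Cox6a1 of 0.02 (SE 0.10), Cox6b1 of -0.14 (SE 0.10), Cox7a2 of -0.17 (SE 0.10) and Cox8a of -0.18 (SE 0.12). In complex III, the Rieske iron-sulfur protein Uqcrfs1 had -0.20 (SE 0.12) and the hinge protein Uqcrh 0.08 (SE 0.11).

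**Figure D2:**
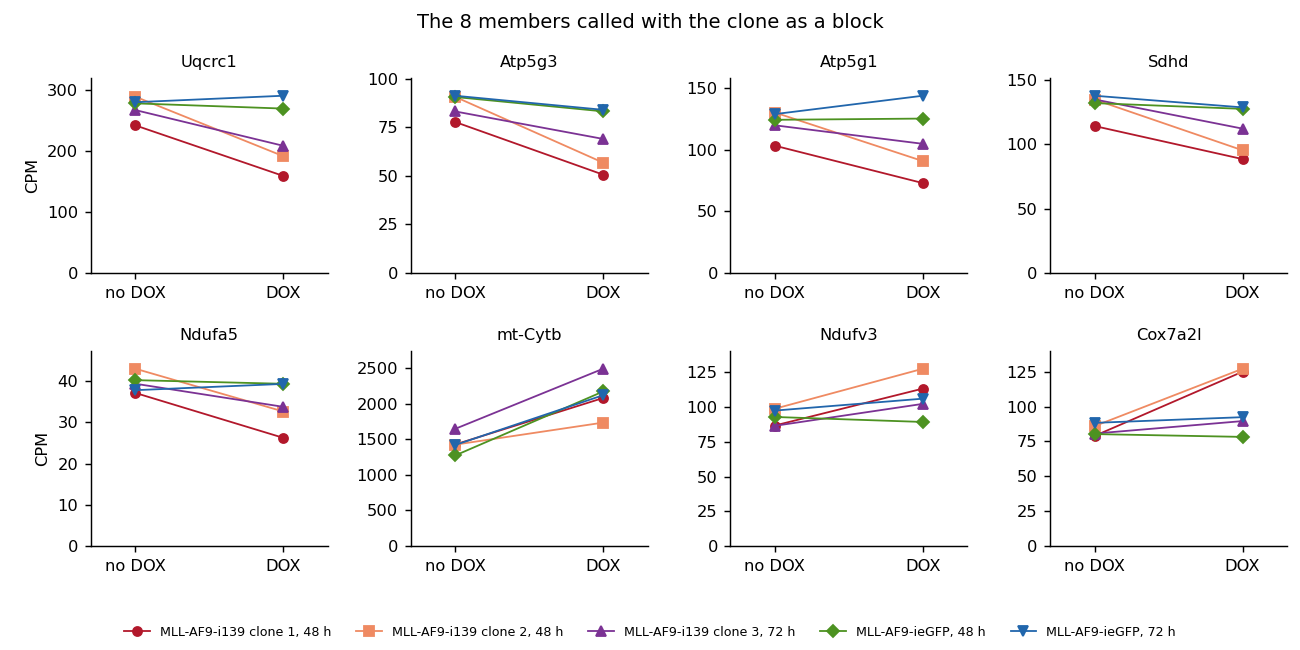
CPM of the 8 members that passed an adjusted p of 0.05 with the clone as a block, without and with DOX; each line joins the libraries of 1 clone and time, and all vertical axes start at 0. Uqcrc1, Atp5g3, Atp5g1, Sdhd and Ndufa5 are lower with DOX in each MLL-AF9-i139 clone, and mt-Cytb is higher in every pair of both constructs.

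mt-Cytb (mitochondrial genome, from 14145 to 15288, plus strand), the 1 mitochondrial subunit of complex III, lay higher with DOX in each of the 5 pairs of libraries. It had 1425, 1423 and 1645 CPM without and 2078, 1733 and 2489 CPM with DOX in the MLL-AF9-i139 clones, and in MLL-AF9-ieGFP 1271 and 1418 CPM without and 2169 and 2118 CPM with DOX. In both constructs each DOX library lay above each untreated one. The log2 fold change was 0.50 in MLL-AF9-i139 (SE 0.15, adjusted p = 0.133, edgeR, and 0.0269 with the clone as a block) and 0.67 in MLL-AF9-ieGFP (unadjusted p = 0.00115 and adjusted p = 1, edgeR across all genes).

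The mitochondrial subunits of complex I varied with the clone. mt-Nd1 had 1270, 1377 and 1933 CPM without and 1013, 789.7 and 2638 CPM with DOX in clones 1, 2 and 3, so that it was lower with DOX in clones 1 and 2 and higher in clone 3. In MLL-AF9-ieGFP it went from 1186 and 1660.4 to 1756 and 1939.8 CPM. mt-Nd2 had 444, 451 and 602 CPM without and 416, 287 and 945 CPM with DOX, and in MLL-AF9-ieGFP 389.9 and 515 CPM without and 646 and 654 CPM with DOX. Clone 2 was lower with DOX in 11 of the 13 mitochondrial members, mt-Nd4l and mt-Cytb being the exceptions, whereas clone 3 was higher in 12, mt-Co1 being the exception. Clone 3 is also the clone treated for 72 h, and clone and time cannot be told apart.

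mt-Co1 lay lower with DOX by a small amount that did not pass the test. It had 4334, 4897 and 5488 CPM without and 4202, 4091 and 5303 CPM with DOX in MLL-AF9-i139. In MLL-AF9-ieGFP, mt-Co1 had 4644 and 4665 CPM without and 4321 and 4303 CPM with DOX. Each of the 5 pairs of libraries was lower with DOX, by 0.04 to 0.26 on the log2 scale. The log2 fold change was -0.10 (SE 0.15, adjusted p = 0.730, edgeR). mt-Nd4, mt-Nd5 and mt-Nd6 had log2 fold changes of 0.21, 0.15 and 0.21 in MLL-AF9-i139 and of 0.35, 0.34 and 0.36 in MLL-AF9-ieGFP. Among the scarce members, mt-Nd4l was higher with DOX in each of the 5 pairs (0.58, SE 0.23, adjusted p = 0.212, edgeR), and mt-Nd3 had values of 0.03, -0.74 and 0.58 in clones 1, 2 and 3. mt-Co2, mt-Co3, mt-Atp6 and mt-Atp8 had fitted values of 0.14, 0.13, 0.06 and 0.52, each with clone 2 below and clone 3 above 0.

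**Figure D3:**
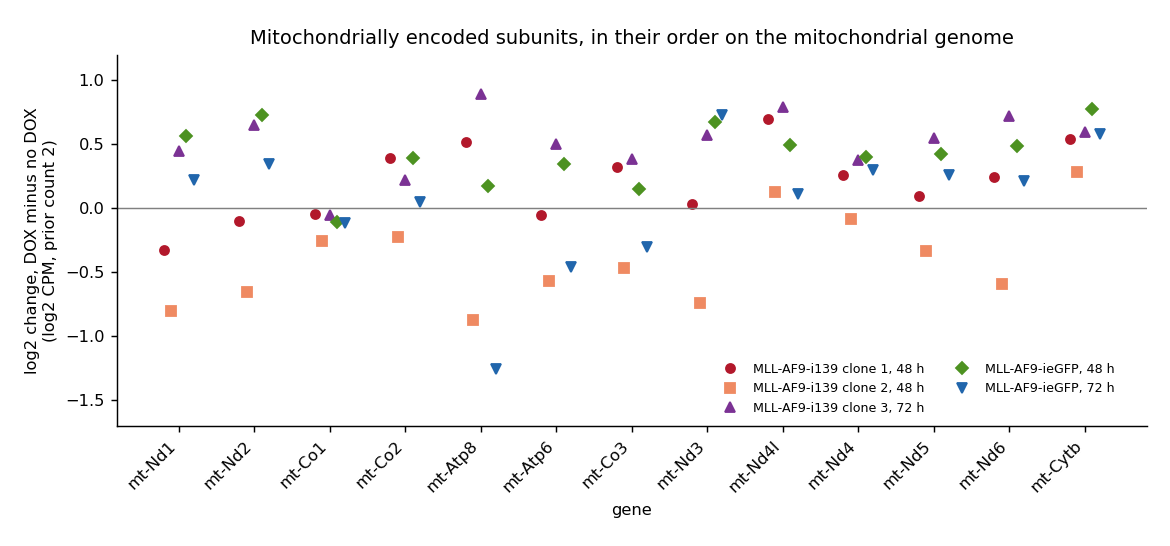
Log2 change of the 13 mitochondrial genes with DOX (difference of log2 CPM, prior count 2) in each pair of libraries, with the genes in their order on the mitochondrial genome from left to right. mt-Cytb is above 0 and mt-Co1 below 0 in all pairs, whereas mt-Nd1 runs from -0.80 in clone 2 to 0.57 in MLL-AF9-ieGFP at 48 h.

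Within a library, the ratio of summed mitochondrial to summed nuclear counts does not depend on normalization. Over all complexes its log2 value in clones 1, 2 and 3 went from 0.39, 0.30 and 0.58 in untreated cells to 0.62, 0.25 and 0.95 with DOX. The change was 0.19 ± 0.21 (SD, n = 3 clones), with clone 2 against the other two, so it was not larger than the spread between clones. The change in MLL-AF9-ieGFP was 0.33 at 48 h and 0.11 at 72 h.

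The complexes differed in this ratio. In complex III, mt-Cytb against 8 nuclear genes, the log2 ratio went from 0.83, 0.57 and 0.88 to 1.62, 1.15 and 1.64, a change of 0.71 ± 0.12 (SD, n = 3 clones) with the same sign in every clone. MLL-AF9-ieGFP, which lacks the miR-139 transgene, had changes of 0.80 at 48 h and 0.53 at 72 h. Both sides contributed in MLL-AF9-i139, where the summed nuclear subunits of complex III fell by 0.25, 0.29 and 0.16 on the log2 scale, but in MLL-AF9-ieGFP these changed by -0.03 and 0.05. In complex I the change was 0.05 ± 0.46 (SD, n = 3 clones), from 0.03, -0.40 and 0.53, and the clones disagreed in sign. In complex IV, which mt-Co1 dominates, it was -0.06 ± 0.09 (SD, n = 3 clones), with -0.09 and -0.19 in MLL-AF9-ieGFP. With Ndufa4 counted in complex IV instead of I, the mean change in MLL-AF9-i139 was 0.05 in complex I and -0.05 in complex IV. Complex V, with both mitochondrial members uncertain, had 0.17 ± 0.50 (SD, n = 3 clones).

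**Figure D4:**
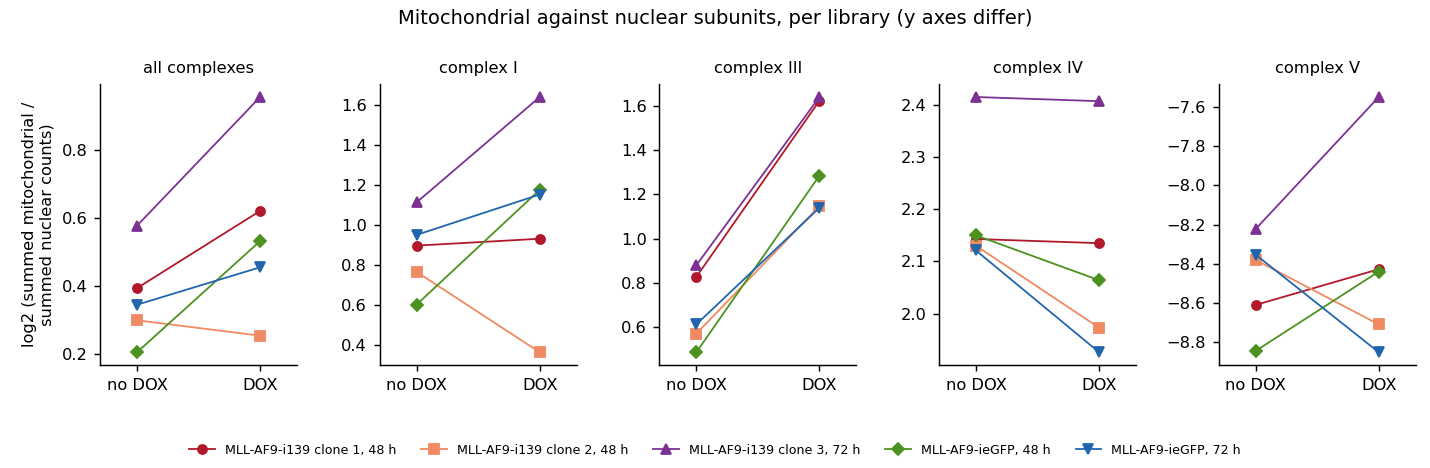
Log2 ratio of summed mitochondrial to summed nuclear counts in each library, for all complexes and for complexes I, III, IV and V, without and with DOX; lines join libraries of 1 clone and time, and the vertical axes differ. The ratio rises in all 5 pairs for complex III, by 0.53 to 0.80, whereas for complex I clone 2 falls by 0.40 and clone 3 rises by 0.53.

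In MLL-AF9-ieGFP, which received DOX without miR-139, mitochondrial members lay higher and nuclear members lay on both sides of 0, and none passed the test. There, 0 of 93 members passed an adjusted p of 0.05 (edgeR with 1 spread over 4 groups, and 0 with DESeq2), where 0.0% of 20269 genes did, and 3 members had an unadjusted p under 0.05, against 1.28% of all genes: mt-Cytb, mt-Nd3 (0.70) and mt-Nd4 (0.35). The median log2 fold change was 0.00 over the nuclear members, with 43 above and 36 below 0, and 0.34 over the mitochondrial ones, with 9 above and 4 below 0. Groups that did not overlap were found for 10 mitochondrial members, 9 above and 1 below, and for 12 nuclear ones, 6 in each direction, where 26.9% of all genes had them. With libraries at 2 times of 1 clone, time and replicate cannot be told apart.

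**Figure D5:**
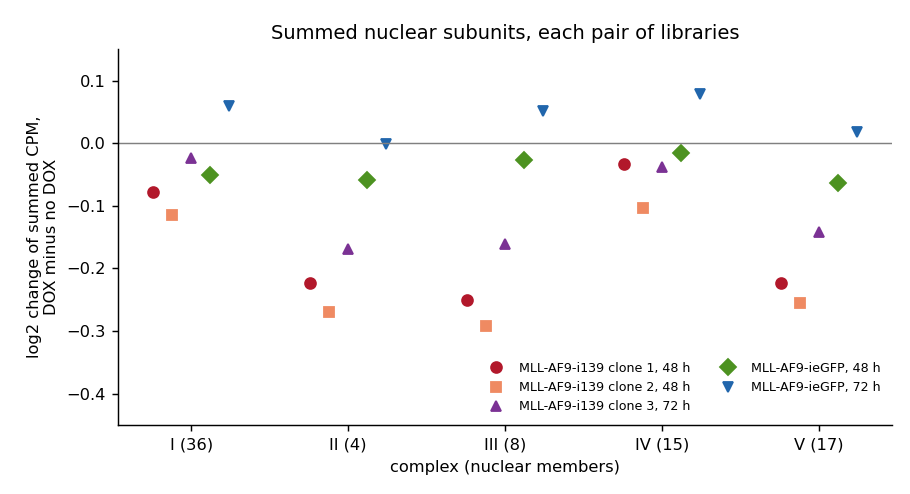
Log2 change of the summed CPM of the nuclear members of each complex with DOX, for each pair of libraries (number of genes in brackets). The 3 MLL-AF9-i139 clones lie below 0 in every complex, from -0.29 to -0.02, whereas MLL-AF9-ieGFP lies between -0.06 and 0.08.

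Whether the change with DOX differed between constructs was tested as an interaction. No member passed (0 of 93, against 0.00493% of all genes, edgeR, and 0 with DESeq2 or with the replicate number as a block), and 4 had an unadjusted p under 0.05, against 9.18% of all genes: Uqcrc1 (-0.52), Atp5g1 (-0.48), Atp5o (-0.35) and Cox7a2l, whose value was 0.46 (unadjusted p = 0.0498, edgeR across all genes). The median of the interaction was -0.14 over the nuclear members and -0.15 over the mitochondrial ones, against -0.01 over all genes. When clone 3 was left out, so that both remaining clones had 48 h of DOX, 5 of 92 members passed, where 10.2% of all genes did: mt-Nd1 (-0.90), mt-Nd2 (-0.84), Uqcrc1 (-0.58), Atp5g3 (-0.50) and Cox7a2l (0.63). MLL-AF9-ieGFP kept its libraries of both 48 h and 72 h there, so time was not matched between the constructs. For mt-Cytb the interaction was -0.18 (unadjusted p = 0.37, edgeR across all genes). A difference between constructs in the response of the members is thus not shown by the interaction over all clones.

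Untreated, no member separated the constructs in the test. In the comparison of MLL-AF9-i139 with MLL-AF9-ieGFP without DOX, 0 of 93 members passed (0.0444% of all genes, edgeR, and 0 with DESeq2) and 0 had an unadjusted p under 0.05, against 2.48%. The nuclear members tested in MLL-AF9-i139 had a median log2 difference of -0.05, from -0.41 for Cox7a1 to 0.47 for Cox6b2, which are both scarce. The mitochondrial median was 0.12. Since 3 clones of 1 construct were set against 1 clone of the other, construct and clone cannot be told apart.

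Many nuclear members lay lower in clone 1 than in the other clones, and many mitochondrial members lay higher in clone 3. With DOX taken into account, 0 of 92 members passed a test over the 3 clones, where 2.19% of all genes did (edgeR), 20 had an unadjusted p under 0.05, against 19.0% of all genes, and DESeq2 called 1, mt-Nd1, against 8.19%. Among nuclear members, clone 2 lay above clone 1 both without and with DOX for 69 of 79, against 35.9% of all genes, and clone 3 lay above clone 1 for 58 of 79, against 32.7%. Clone 2 exceeded clone 1 by a median of 0.21 (log2) in untreated cells and by 0.14 after DOX. For Atp5a1, for example, clone 1 was the lowest clone in both conditions. Among mitochondrial members, clone 3 lay above clone 1 in both conditions for 10 of 13 and above clone 2 for 9 of 13, against 30.4% of all genes. Its median log2 difference from clone 2 was 0.10 without DOX and 0.96 with DOX. When clone 3 was left out, 42 of 92 members differed between clones 1 and 2 (edgeR), 37 of them higher in clone 2, where 13.8% of all genes differed. Members of 1 library share its depth and normalization and are not independent of each other.

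The paper reports by qPCR that DOX raised both arms of miR-139 in MLL-AF9-i139 clones. Mir139 had 0 counts in each of the 10 libraries, so its level in each clone is not shown here. A microRNA arm pairs with targets mainly through its seed, bases 2 to 8. The mature sequences from RefSeq (GRCm38.p6, chromosome 7, plus strand, from 101475382 to 101475403 and from 101475418 to 101475439) are shown for that reason, with the seed in capitals.
miR-139-5p: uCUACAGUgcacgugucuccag
miR-139-3p: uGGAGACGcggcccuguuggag
A match to the seed reads ACTGTAG for miR-139-5p and CGTCTCC for miR-139-3p, in the sense of the transcript. In the longest annotated 3′ UTR, 4 of 79 nuclear members (5.06%) had the first and 3 the second, against 13.2% and 4.31% of 14048 protein-coding genes tested. The 3′ UTRs of the members are short, with a median of 264 bases against 1268. Of the genes called with the clone as a block, Atp5g3 held a match to miR-139-5p (GRCm38, chromosome 2, minus strand, from 73908509 to 73908515) and Atp5g1 a match to miR-139-3p (chromosome 11, minus strand, from 96072867 to 96072873), which are shown with the match in capitals.
Atp5g3: ctccgaagACTGTAGtactggtg
Atp5g1: ggtcccacCGTCTCCcaggagga
The other members with a match were Ndufb2, Ndufb3, Ndufb4 and Uqcrq, with log2 fold changes of 0.10, -0.07, -0.35 and -0.06. Uqcrc1, Sdhd and Ndufa5 held neither. The median log2 fold change was -0.07 for the members with a match to miR-139-5p and -0.11 for those without, and -0.35 for the 3 members with a match to miR-139-3p and -0.10 for those without. A match of these letters is a description and not a shown site.

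Promoters of nuclear respiratory chain genes are known for sites of NRF1, GABPA and YY1. Each motif was searched on both strands in 300 bases from RefSeq, 250 before and 50 after the annotated start, in all listed promoters of a gene. GCGCATGC, a core of the NRF1 motif, was present in 10 of 67 members matched (14.9%), against 3.94% of 17492 protein-coding genes. CCGGAAGT, for GABPA, was present in 5 (7.46%), against 5.69%, and AAGATGGC, for YY1, in 10 (14.9%), against 3.57%. The median log2 fold change with DOX was -0.08 for the 24 members with any of these motifs and -0.14 for the others. Uqcrc1 was the 1 gene called with the clone as a block whose promoter held one, a palindromic run in which 2 NRF1 matches overlap. It is shown for that reason (GRCm38.p6, chr9:108936398-108936697, plus strand) with the matches in capitals.
Uqcrc1: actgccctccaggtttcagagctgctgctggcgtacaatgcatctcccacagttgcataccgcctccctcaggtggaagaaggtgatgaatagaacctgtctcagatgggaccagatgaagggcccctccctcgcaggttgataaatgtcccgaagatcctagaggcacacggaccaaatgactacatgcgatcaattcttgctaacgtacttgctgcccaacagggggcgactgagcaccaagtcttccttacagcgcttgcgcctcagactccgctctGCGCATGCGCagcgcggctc
The promoters of Atp5g3, Cox7a2l, Ndufv3, Sdhd, Atp5g1 and Ndufa5 held none of these letters in their windows.

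Most genes that serve the chain outside the symbol rule had negative values with DOX in MLL-AF9-i139. Cycs, the cytochrome c that carries electrons from complex III to IV, had a log2 fold change of -0.66 (SE 0.16, adjusted p = 0.109, edgeR, and 0.0205 with the clone as a block), from 88.2 ± 12.3 to 55.2 ± 10.1 CPM (SD, n = 3 clones). Cyc1, the cytochrome c1 of complex III, had -0.44 (SE 0.15), from 111 ± 10.8 to 81.1 ± 16.2 CPM (SD, n = 3 clones). Of the 5 such carriers and further subunits tested, 2 fell and 0 rose with the clone as a block, where 5.33% of all genes fell and 7.05% rose. The ATP synthase inhibitor Atpif1 had the 1 positive value, at 0.16.

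With the clone as a block, 5.33% of all genes fell and 7.05% rose. Of 40 assembly factors tested, 3 fell and 0 rose, a share of falls near that of all genes, with a median log2 fold change of -0.16 in the fit without it. The complex I factors Ndufaf2 and Ndufaf4 had -0.70 (SE 0.14) and -0.73 (SE 0.25), and Coa7, a complex IV factor, had -0.46 (SE 0.13). In 25 of the 40 the DOX library was lower in each clone, against 26.5% of all genes, and in 3 it was higher, against 27.2%.

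Genes that copy, transcribe and process the mitochondrial genome had a median of -0.20. Of 32 tested, 9 fell and 0 rose with the clone as a block, where 5.33% of all genes fell and 7.05% rose. In 22 the DOX library was lower in each clone and in 4 it was higher, against 26.5% and 27.2% of all genes. Values above 0 were found for 9 genes, among them Dguok (0.43, SE 0.20) and Tk2 (0.30, SE 0.13). Genes that fell with the block included the mitochondrial RNA polymerase Polrmt (-0.40, SE 0.14), its factor Tfb2m (-0.41, SE 0.15) and the helicase Twnk (-0.69, SE 0.23). Also among them were the RNA stabilizer Lrpprc (-0.54, SE 0.19) and the tRNA-processing nuclease Elac2 (-0.54, SE 0.13). Tfam, which packages mitochondrial DNA, had -0.37 (SE 0.14) and did not pass. Among 9 regulators of mitochondrial biogenesis, 1 fell with the clone as a block, Myc (-0.45, SE 0.15), and Nrf1, Gabpa, Yy1 and Esrra had values of -0.18, -0.06, -0.05 and 0.02. The coactivators Ppargc1b and Pprc1 had -0.86 (SE 0.59) and -0.40 (SE 0.16) and did not pass (adjusted p = 0.0642 and 0.0562 with the clone as a block, edgeR), and Ppargc1a was scarce, at 0.05 CPM. Of 13 enzymes of the citric acid cycle, 2 fell with the clone as a block, Idh3a (-0.50, SE 0.18) and the fumarase Fh1 (-0.36, SE 0.12). In 11 the DOX library was lower in each clone, against 26.5% of all genes. In the fit without the block, 0 genes of these 5 lists passed (edgeR), and in MLL-AF9-ieGFP their medians lay between -0.04 and 0.00. Genes of these lists were named after their values were seen.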

How the data were processed

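The authors depleted ribosomal RNA from total RNA (KAPA RNA HyperPrep with RiboErase), mapped reads to GRCm38 with STAR (2.5.3e) and counted them per gene with featureCounts (1.6.0) on a GENCODE annotation. The values used are the deposited raw counts of 10 libraries, without normalization. The authors name DESeq2 (1.22.2) for testing. Left unused were 14 columns of other samples in this table, and a second table held the same counts.

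Groups, clone numbers, times and doses came from the sample labels. CPM were scaled by TMM factors of edgeR (4.0.16, R 4.3.3) over 10 libraries. The quasi-likelihood test of edgeR was run over the whole table on genes whose counts in the libraries of a fit summed to 10 or more, with Benjamini-Hochberg adjustment and a threshold of 0.05. SE is the absolute log2 fold change over the square root of the F statistic. DOX in MLL-AF9-i139 and the clones used 6 libraries, and the other comparisons 1 fit of 4 groups over 10. Changes of single pairs were computed from log2 CPM (prior count 2). Numbers pair libraries of the same clone, and these deviated together (r = 0.38, 0.29 and 0.41 in clones 1, 2 and 3, and at most -0.04 between clones). Deviations were taken from the mean of the 3 clones in each condition, which by itself pulls values between clones below 0 when those within clones are positive. Libraries of a group differed beyond sampling noise (chi-square per degree of freedom at least 13.5). For DOX in MLL-AF9-i139 and for the clones, p-values measure the spread between libraries of these clones. In the other comparisons they measure 1 spread shared by 4 groups, from these clones and from the times of 1 MLL-AF9-ieGFP clone. Precision is limited by counting error mainly for scarce genes.

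Positions, overlaps and 3′ UTRs came from GENCODE M21 on GRCm38, a later release than the authors name, and microRNAs and promoters from RefSeq. Of 80 nuclear members, 67 matched a promoter by symbol or synonym. Copies were aligned without gaps. Members, lists and tests were chosen with earlier results of these data known. Named were all mitochondrial members, core subunits, tissue isoforms and, per complex, the nuclear members with the highest and lowest log2 fold change among those with an average log2 CPM of at least 1 and the same sign in 3 clones. A gene named by this rule is not reported here. Alternatives were DESeq2 (1.42.0), RLE size factors, normalization without mitochondrial genes, other filters, the replicate block, and 1 fit over the 10 libraries together. Each MLL-AF9-i139 clone and each MLL-AF9-ieGFP time was also left out in turn, its libraries without and with DOX together. Fits were tested on simulated counts that did not carry the spread between clones and times of these data, so that test does not cover it. Python 3.11.15 with pandas 2.3.3 was used.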

Additional observations from a re-analysis of the deposited data

Results flagged for a closer look

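Ndufa4 and Atp5g1 were lower with DOX in each of the 3 MLL-AF9-i139 clones and higher with DOX at both times in MLL-AF9-ieGFP. For Ndufa4, a subunit of complex IV, the interaction of DOX and construct was -0.32 on the log2 scale (unadjusted p = 0.0932 and adjusted p = 0.596, edgeR across all genes). For Atp5g1, a gene of ATP synthase subunit c, it was -0.48 (unadjusted p = 0.0433 and adjusted p = 0.539, edgeR across all genes). Only Atp5g1 thus had an unadjusted p under 0.05, and neither difference passed after adjustment. In all, 6 of 92 members moved one way in each pair of MLL-AF9-i139 and the opposite way in each pair of MLL-AF9-ieGFP, against 10.6% of all genes. The others, named after their values were seen, were Ndufc1, Cox7b and Cox7c, also lower in MLL-AF9-i139, and Ndufb7, higher there, with interactions of -0.28, -0.23, -0.28 and 0.07 (edgeR, none with an unadjusted p under 0.05).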

How the results depend on the processing

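The number of members called depended on the model. For DOX in MLL-AF9-i139 it was 0 as reported, 4 with DESeq2, 8 with the replicate block, 3 in the fit of all 10 libraries (Uqcrc1, Atp5g3 and mt-Cytb) and from 0 to 10 with a clone left out, the 10 without clone 3, where 21.7% of all genes passed. It stayed at 0 with RLE size factors, normalization without mitochondrial genes, and other filters. For MLL-AF9-ieGFP and for the untreated constructs it was 0 under each alternative, among them the 4 MLL-AF9-ieGFP libraries alone, a fit added after seeing the data. The interaction gave from 0 to 5 with a clone of MLL-AF9-i139 or a time of MLL-AF9-ieGFP left out, the 5 without clone 3, and 0 otherwise. The difference between clones gave 1 with DESeq2, 2 without a filter (mt-Nd1 and mt-Nd2), and from 3 to 42 with a clone left out: 3 without clone 1 (mt-Nd1, mt-Nd2 and Ndufa4l2), 4 without clone 2 (mt-Nd1, mt-Nd2, mt-Atp8 and mt-Atp6) and 42 without clone 3. A fit with a clone left out also has fewer libraries, and the causes of these differences were not tested. The change of the overall ratio lay within 1 SD of 0.19 under each alternative, from 0.09 to 0.30 with a clone left out, and was 0.31 without mt-Co1, an alternative added after seeing the data, which moved the complex IV change from -0.06 to 0.17. No log2 fold change of a member turned its direction while being called.

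The comparison rests on 3 clones of 1 construct and 1 clone of the other. Clone 3 differs from the others in time of treatment. Mitochondrial genes copied on chromosome 1, and mt-Atp8, have few counts, so their changes and the ratio of complex V are imprecise. Cox4i1, Ndufa13 and Cox6a2 could not be measured.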

Other observations

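Other RNAs of the mitochondrial genome are given as deposited counts, not scaled for depth. After ribosomal RNA depletion mt-Rnr1 had 402, 745 and 185 counts without DOX and 655, 126 and 280 with DOX in clones 1, 2 and 3, and mt-Rnr2 had 946, 1570 and 1084 without and 1453, 407 and 1377 with DOX. The 22 mitochondrial tRNAs together had 2101, 2134 and 2459 counts without and 1332, 796 and 2834 with DOX, so that clones 1 and 2 were lower and clone 3 was higher with DOX, which is also the order of mt-Nd1.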
